A study of Mus musculus with 24 samples.

Results

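Ubiquitin-specific proteases were followed through a day in the hearts of wild-type mice. They were taken as all genes whose symbol is Usp followed by a digit, with any suffix. Of 22180 genes that the arrays measured through a probe set naming a single gene, 56 met this rule, all of them protein-coding. They had 61 probe sets, of which 52 genes had 1 and 4 genes (Usp12, Usp43, Usp46 and Usp50) had several, whose mean was used. The symbols fit the family name with 1 exception known from textbook knowledge, since Usp6nl encodes a Rab GTPase-activating protein named for its likeness to the start of USP6 and not a protease.

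The animals were male wild-type C57Bl/6 mice, 8 weeks old, and the tissue is labelled myocardium. The light schedule was 12 h of light and 12 h of dark. Zeitgeber time (ZT) counts hours from lights-on. There were 6 sampling times of 4 arrays each, 24 arrays in all, called biological replicates. The light phase was sampled at ZT03, ZT07 and ZT11, the dark phase at ZT15, ZT19 and ZT23. No genotype or treatment other than the time differed, and nothing in the labels says whether an array holds 1 heart or a pool. All values below are log2 values relative to the gene's own median over the 24 arrays, so they show change in a gene over the day and carry no level. The tissue label could for that reason not be checked against its markers, since the presence of a transcript cannot be read from such values, and levels of different genes cannot be compared. As the samples are whole tissue, fewer cells of a type and less RNA per cell cannot be told apart.

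Ubiquitin-specific proteases are cysteine proteases that cut ubiquitin from proteins or trim ubiquitin chains, and they form the largest family of deubiquitinases. By removing the mark they can spare a protein from the proteasome, change its place in the cell or return free ubiquitin. In muscle and heart, protein turnover by ubiquitin is part of how sarcomere and signalling proteins are renewed, and several clock proteins have ubiquitin-dependent lifetimes. These arrays measure messenger RNA, not enzyme activity.

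Of the 56 members, 10 had a 24-h rhythm, and its size differed widely among them. Usp2 changed 2.08-fold from trough to peak, Usp54 1.39-fold, and the other 8 between 1.13-fold and 1.22-fold. The 10 were Usp53, Usp28, Usp13, Usp7, Usp19 and Usp54, with peaks in the light (6 members, 10.7%), and Usp2, Usp21, Usp16 and Usp10, with peaks in the dark (4 members, 7.14%). Of all genes 3.83% were rhythmic with a peak in the light and 3.78% with a peak in the dark. A rhythm was called where the cosine and sine terms of a 24-h fit reached an adjusted p below 0.05 in limma's moderated test, adjusted with Benjamini-Hochberg over all 22180 genes. The 10 are 17.9% of the members, beside 7.61% of all genes and 8.47% of the 18964 protein-coding genes called by the same rule. Since heart-expressed genes could not be singled out in values without levels, the share among all genes includes genes that may be silent in heart. At an unadjusted p below 0.05 there were 18 members (32.1%, beside 19.5% of all genes). The median amplitude (peak minus mean, log2) was 0.0529 over the 56 members, with quartiles of 0.0289 and 0.101, beside 0.0396 over all genes. A rhythm of at least 1.5-fold was called in 1 member (1.79%, beside 0.762% of all genes), and of at least 2-fold in the same 1 (beside 0.162%).

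**Figure D1:**
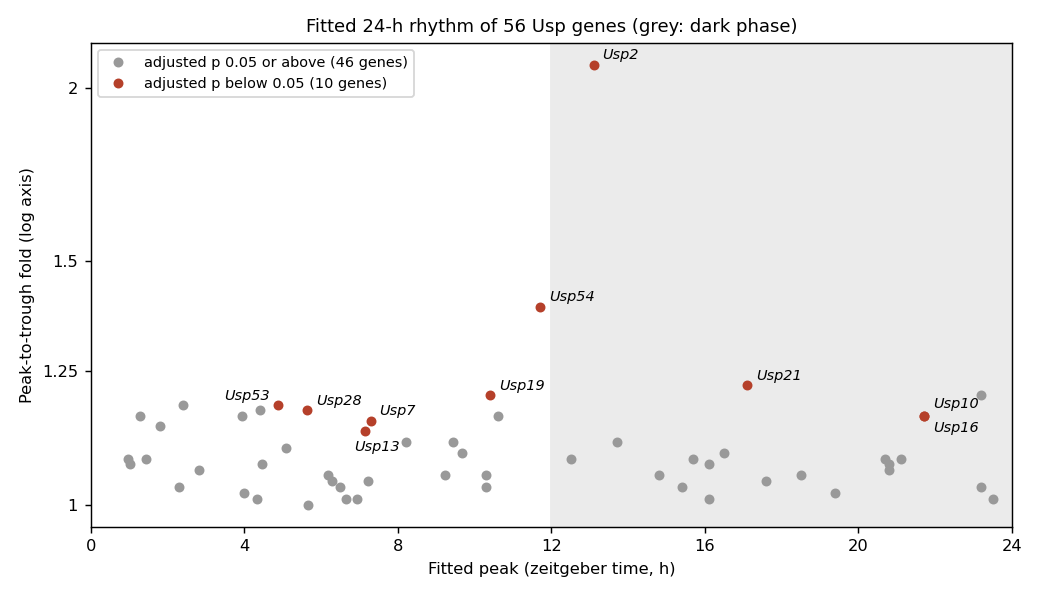
Each point is 1 of 56 Usp genes, with the fitted peak in hours after lights-on on the horizontal axis and the peak-to-trough fold on a log axis. Red points are the 10 members with an adjusted p below 0.05 and grey points the other 46. Usp2 stands at 2.08-fold, Usp54 at 1.39-fold, and the other 54 lie at 1.22-fold or below.

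The fitted peaks of the 10 called members are given by time of day. In 4-h bins from lights-on, 0, 4, 2, 1, 1 and 2 of them peaked, whereas the 1688 rhythmic genes of the whole table fell into bins of 252 to 308. Usp53 (ZT 4.88), Usp28 (ZT 5.64), Usp13 (ZT 7.15) and Usp7 (ZT 7.29) formed the group of the mid light phase. Usp19 (ZT 10.4), Usp54 (ZT 11.7) and Usp2 (ZT 13.1) peaked around lights-off, Usp21 at ZT 17.1, and Usp16 and Usp10 both at ZT 21.7. Standard errors (SE) of these times were 0.341 h for Usp2, 0.726 h for Usp54 and between 0.780 h and 0.967 h for the rest. No difference between peak times was tested. Over all 56 members, 34 had their fitted peak in the light and 22 in the dark, beside 10803 and 11377 of all 22180 genes. These counts include genes with no called rhythm and amplitudes near 0, whose peak times are uncertain.

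**Figure D2:**
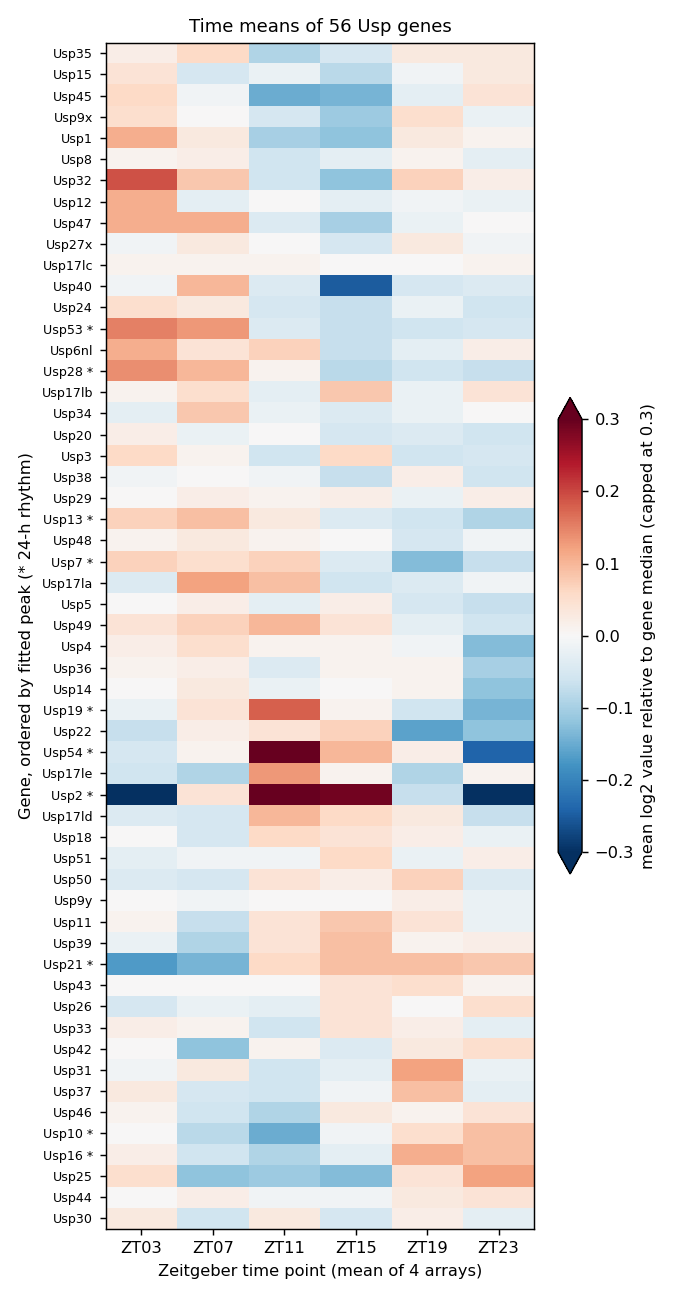
Rows are the 56 Usp genes ordered by fitted peak, columns are the 6 time points, and colour is the mean log2 value of 4 arrays relative to the gene's median, capped at 0.3 on either side. Asterisks mark the 10 members with a 24-h rhythm. The deep colours of Usp2 at ZT03 and ZT11 (means of -0.76 and 0.43) and of Usp54 at ZT11 (0.38) stand out from the pale rows of most members.

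Sequences before the gene starts were searched for short motifs, and those of 4 rhythmic members are shown because they span the day and differ in what they hold. The 250 bases before the start in RefSeq's promoter table (build GRCm38.p6) were used, which held 43 of the 56 members and 9 of the 10 rhythmic ones. Usp2 is shown as the member of largest amplitude, at chr9:44084670-44084919 on the plus strand, where none of the 11 motifs searched was found. Usp54, at chr14:20618355-20618604 on the minus strand, holds TGACGT, the core of cAMP response elements, 203 to 208 bases before its start. Usp16, at chr16:87454735-87454984 on the plus strand, holds CACGTG, the E-box known to be bound by CLOCK and BMAL1, 72 to 77 bases before its start. Usp13, at chr3:32817376-32817625 on the plus strand, holds a CCAAT box in reverse. Capitals mark these matches, 5′ to 3′ on the gene's strand.
Usp2: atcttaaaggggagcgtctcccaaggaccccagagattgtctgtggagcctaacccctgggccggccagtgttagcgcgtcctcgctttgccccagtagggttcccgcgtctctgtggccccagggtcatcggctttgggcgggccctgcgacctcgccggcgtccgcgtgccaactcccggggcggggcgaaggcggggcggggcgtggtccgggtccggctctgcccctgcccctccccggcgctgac
Usp54: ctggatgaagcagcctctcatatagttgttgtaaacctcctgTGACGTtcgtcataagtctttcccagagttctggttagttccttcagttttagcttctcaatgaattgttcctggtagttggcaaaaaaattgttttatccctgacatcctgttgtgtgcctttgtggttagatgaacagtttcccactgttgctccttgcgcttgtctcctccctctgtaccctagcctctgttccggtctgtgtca
Usp16: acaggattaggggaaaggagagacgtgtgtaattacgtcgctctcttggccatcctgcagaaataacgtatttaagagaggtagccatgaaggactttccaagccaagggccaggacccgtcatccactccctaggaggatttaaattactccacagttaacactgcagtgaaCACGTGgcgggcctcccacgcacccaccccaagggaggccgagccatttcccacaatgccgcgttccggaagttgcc
Usp13: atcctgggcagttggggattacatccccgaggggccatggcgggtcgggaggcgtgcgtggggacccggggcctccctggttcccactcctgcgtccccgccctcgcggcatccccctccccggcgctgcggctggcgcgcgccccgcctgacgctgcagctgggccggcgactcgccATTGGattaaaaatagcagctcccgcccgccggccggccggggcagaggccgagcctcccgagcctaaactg

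The motifs were counted on either strand and set against all 32851 windows of the same length in the table. CACGTG was in 4 of the 43 members (9.30%) and in 6.02% of all windows, and among rhythmic members Usp16 alone held it. CCAAT was in 13 members (30.2%, beside 33.8% of windows), and in 3 of the 9 rhythmic ones, Usp13, Usp28 and Usp7. A link of motif and peak time was not tested. TGACGT was in 4 members (9.30%, beside 6.47%), AGGTCA, the core bound by REV-ERB and ROR receptors, in 3 (6.98%, beside 14%) with Usp10 the rhythmic one, and the ETS motif CCGGAAG in 7 (16.3%, beside 6.91%), with Usp16 the rhythmic one, where CCGGAAG and CACGTG do not overlap. CACGTT was in 2 members, neither rhythmic (3.85% of windows). The D-box TTATGTAA (0.819% of windows), its variant TTACGTAA (0.113%), the heat shock motif GAANNTTC (6.69%), the palindromic glucocorticoid receptor motif (0.180%) and the palindromic NRF1 motif (0.782%) were in none of the 43. The median GC content of these windows was 63.4% in the members and 52.4% in all windows. A match describes the letters only, and a missing match says only that the letters are not in this window.

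Usp2 encodes a deubiquitinase that is known to act on PER1, CRY1 and BMAL1, and it had the largest rhythm of the family. At ZT03 the 4 arrays read -0.99, -0.80, -0.78 and -0.48, and at ZT07 they read 0.05, 0.07, -0.01 and 0.03. At ZT11 they read 0.44, 0.42, 0.37 and 0.48, and at ZT15 0.24, 0.37, 0.30 and 0.26. At ZT19 they read 0.01, -0.10, -0.10 and -0.08, and at ZT23 -0.26, -0.40, -0.47 and -0.27. The 4 arrays of ZT03 were the lowest of the day, the highest of them (-0.48) next to the lowest of ZT23 (-0.47). The arrays of ZT11 were the highest, its lowest (0.37) meeting the highest of ZT15 (0.37). The amplitude was 0.53 ± 0.0471 (SE, 24 arrays), the peak fell at ZT 13.1, and the adjusted p was 2.09e-07 in limma's test. Its amplitude exceeded that of 99.9% of all genes.

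The course of Usp2 was uneven, with a steep rise in the early light phase. It rose by 0.80 ± 0.0711 (SE) on the log2 scale, 1.74-fold, from ZT03 to ZT07 (limma, adjusted p = 1.25e-06), and by another 0.39 ± 0.0711, 1.31-fold, to ZT11 (adjusted p = 0.0109). From ZT11 to ZT15 the difference was -0.13 ± 0.0711 and did not pass (adjusted p = 0.684). It fell by 0.36 from ZT15 to ZT19 (adjusted p = 0.0282), differed by -0.28 from ZT19 to ZT23 (adjusted p = 0.230, not called) and fell by 0.41 from ZT23 to ZT03 (adjusted p = 0.00676). The order of the time means was thus ZT11 (0.43 ± 0.05, SD, n = 4), ZT15 (0.29 ± 0.06), ZT07 (0.04 ± 0.03), ZT19 (-0.07 ± 0.05), ZT23 (-0.35 ± 0.10) and ZT03 (-0.76 ± 0.21). Of the neighbours in time, ZT11 and ZT15, and ZT19 and ZT23, did not pass the adjusted test. The arrays of ZT19 (-0.10 to 0.01) and ZT23 (-0.47 to -0.26) did not overlap, with an unadjusted p of 0.000711 in limma's test. ZT07 and ZT19, which are 12 h apart, differed by -0.10 ± 0.0711 (ZT19 minus ZT07, adjusted p = 0.602).

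**Figure D3:**
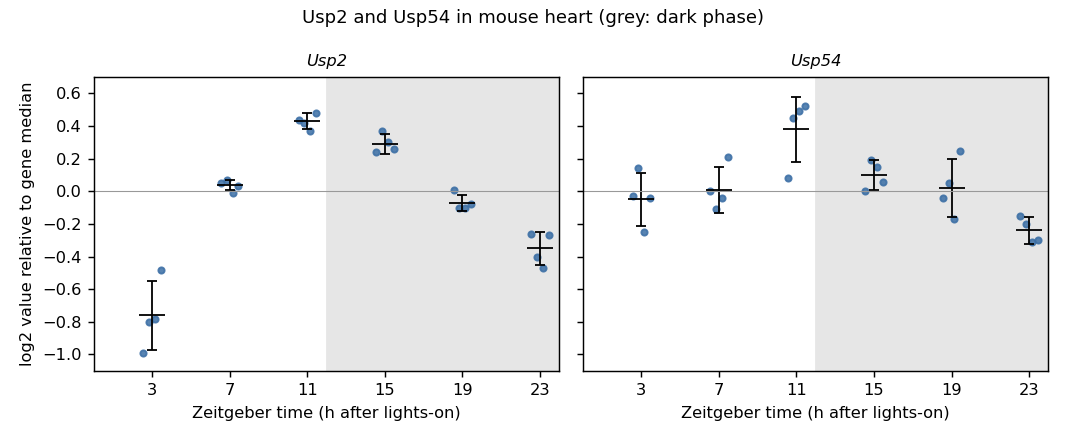
Each point is 1 array, the horizontal axis is zeitgeber time in hours and the vertical axis is the log2 value relative to the gene's median. Short bars with whiskers are the mean and SD of 4 arrays, and grey marks the dark phase. Usp2 is lowest at ZT03 (mean -0.76) and highest at ZT11 (0.43), and Usp54 is highest at ZT11 (0.38) and lowest at ZT23 (-0.24).

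With its fitted peak near lights-off, Usp2 passed the test of dusk against dawn and did not pass that of night against day. The mean of ZT11 and ZT15 lay 0.91 ± 0.0503 (SE, log2), 1.89-fold, above that of ZT23 and ZT03 (limma, adjusted p = 7.36e-11), while the mean of the 3 dark times lay 0.06 ± 0.0411 above that of the 3 light times (adjusted p = 0.555). ZT15 was 2.08-fold above ZT03 (log2 1.05, adjusted p = 6.29e-09), and ZT23 was 1.71-fold below ZT11 (log2 -0.78, adjusted p = 6.26e-07). No other member was called in any of the 6 steps between neighbouring times, where 0.0676% to 0.685% of all genes were called (1.33% in at least 1 step). At ZT07 against ZT03 that share was 0.203%, at ZT11 against ZT07 0.311%, at ZT15 against ZT11 and at ZT19 against ZT15 0.203% each. Without ZT15 replicate 1, Usp21 (adjusted p = 0.0282) and Usp28 (adjusted p = 0.0404) were called in a step as well, as was Usp13 without ZT03 replicate 1 (adjusted p = 0.0299) and Usp54 without ZT11 replicate 1 (adjusted p = 0.0205).

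Of the genes whose proteins Usp2 is reported to act on, the fitted peak of Per1 was at ZT 11.2, that of Cry1 at ZT 18.3, and that of Arntl, the gene of BMAL1, at ZT 0.329. The genes outside the family with the most similar fit were named by the distance between cosine and sine coefficients, in log2 units. They were Coq10b, a gene of coenzyme Q function (distance 0.0548, 1.98-fold, ZT 12.8), Xdh, which encodes xanthine dehydrogenase (0.0839, 1.87-fold, ZT 12.8), Gpcpd1, of glycerophosphocholine breakdown (0.0925, 1.83-fold, ZT 13.0), and the metalloproteinase inhibitors Timp4 (0.0936) and Timp3 (0.113). Each used the same 24 arrays.

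Usp54, which was long listed as lacking protease activity although activity has since been reported, had the next largest rhythm. At ZT11 its arrays read 0.08, 0.45, 0.49 and 0.52, and at ZT23 -0.15, -0.20, -0.31 and -0.30. At ZT03 they read -0.03, 0.14, -0.25 and -0.04, at ZT07 0.00, -0.11, -0.04 and 0.21, at ZT15 0.00, 0.19, 0.15 and 0.06, and at ZT19 -0.04, 0.05, -0.17 and 0.25. Of the 4 arrays of ZT11, 3 lay above all other arrays of the day, and replicate 1 of ZT11 lay within the range of its neighbours. The amplitude was 0.24 ± 0.0447 (SE), with the peak at ZT 11.7 (limma, adjusted p = 0.00373). Dusk was 1.31-fold above dawn (log2 0.38 ± 0.0695, adjusted p = 0.00140) and ZT23 1.54-fold below ZT11 (log2 -0.62 ± 0.0983, adjusted p = 0.000521). Night minus day was -0.16 ± 0.0568 and not called (adjusted p = 0.133), but without ZT11 replicate 1 it was (adjusted p = 0.0283).

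Usp13, Usp28, Usp7 and Usp53 were higher by day, in the group with peaks in the mid light phase. Usp13 cuts ubiquitin chains and is known for roles in autophagy and in protein degradation at the endoplasmic reticulum. Its arrays read 0.14, 0.08, 0.08 and 0.06 at ZT07 and -0.12, -0.12, -0.02 and -0.09 at ZT23, with no overlap. The values at ZT03 were -0.04, 0.06, 0.12 and 0.14, those at ZT11 0.02, 0.03, 0.03 and 0.04, at ZT15 -0.06, -0.02, -0.03 and -0.04, and at ZT19 -0.04, -0.16, -0.09 and 0.06. Every array of ZT07 and ZT11 lay above every array of ZT15 and ZT23. Night lay 0.12 below day (log2 -0.12 ± 0.0243, SE, 12 arrays against 12, 1.09-fold, limma, adjusted p = 0.00382), and the 24-h amplitude was 0.09 ± 0.0177 (adjusted p = 0.00722).

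Usp28, a nuclear protease known to stabilise MYC and to take part in the DNA damage response, read 0.12, 0.20, 0.08 and 0.17 at ZT03 and 0.14, 0.14, 0.06 and 0.09 at ZT07. At ZT15 it read -0.22, -0.06, -0.05 and 0.00, at ZT19 -0.01, -0.09, 0.01 and -0.15, and at ZT23 0.00, -0.02, -0.02 and -0.26. All arrays of ZT03 and ZT07 lay above all arrays of the dark phase. The ZT11 arrays (-0.03, 0.02, -0.01 and 0.07) overlapped both sets. Night minus day was -0.16 ± 0.0314 (1.12-fold, limma, adjusted p = 0.00393), and ZT15 lay 1.17-fold below ZT03 (log2 -0.23 ± 0.0544, adjusted p = 0.0223). That step between opposite times was lost without ZT03 replicate 2, ZT03 replicate 4 or ZT15 replicate 1 (adjusted p up to 0.0929), while the rhythm (amplitude 0.11 ± 0.0234, adjusted p = 0.00740) was kept without any single array.

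Usp7, which is known to act on MDM2 and p53 and on the cryptochromes, had an amplitude of 0.10 ± 0.0226 (limma, adjusted p = 0.0159) and a night minus day difference of -0.14 ± 0.0321 (1.10-fold, adjusted p = 0.0105). Its highest mean, 0.07 ± 0.09 (SD, n = 4) at ZT11, came from arrays at -0.05, 0.09, 0.17 and 0.07, and its lowest, -0.13 ± 0.11 at ZT19, from -0.13, -0.27, 0.00 and -0.12, so these groups overlap. Every dark-phase array of Usp7 was at or below 0.00, and 2 of the 12 light-phase arrays were below it by more than rounding. Usp53, known from tight junctions and, like Usp54, long listed as inactive, read 0.06, 0.12, 0.22 and 0.22 at ZT03 and -0.26, 0.05, -0.08 and 0.00 at ZT15. Its amplitude was 0.12 ± 0.0296 (adjusted p = 0.0289), and its night minus day difference of -0.14 ± 0.0408 passed narrowly (adjusted p = 0.0497). Leaving out an array ended the latter call in 18 cases of 24, with an adjusted p of at most 0.0929, as did 5 of 8 other settings. The rhythm of Usp53 was lost without ZT03 replicate 3 or 4, ZT07 replicate 1 or 4, ZT15 replicate 1, or ZT19 replicate 1 or 2 (adjusted p between 0.0545 and 0.0610). Without ZT07 replicate 4, ZT15 replicate 1 and ZT23 replicate 4 together, the arrays of widest spread, Usp7 (adjusted p = 0.0703), Usp53 (adjusted p = 0.0706) and Usp19 (adjusted p = 0.113) were not called rhythmic, and Usp1 was (adjusted p = 0.0314).

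**Figure D4:**
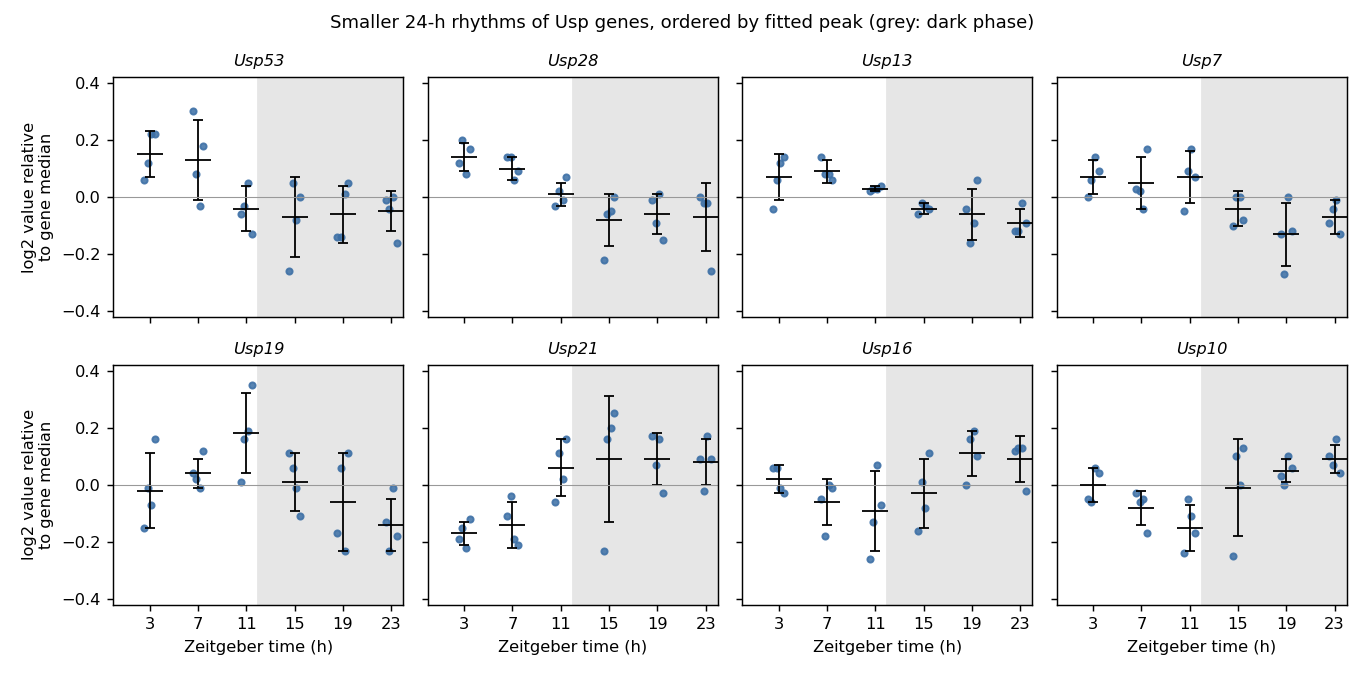
Panels show the 8 rhythmic members of small amplitude in the order of their fitted peaks. Each point is 1 array, bars and whiskers are mean and SD of 4 arrays, the vertical axis is the log2 value relative to the gene's median and grey marks the dark phase. Usp28 and Usp13 fall from light to dark, Usp19 is highest at ZT11 (mean 0.18), and in Usp21 and Usp10 ZT15 replicate 1 (-0.23 and -0.25) lies below the other arrays of that time.

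Night differed from day in 5 members (8.93%, beside 4.39% of all genes), of which 4 were lower at night (7.14%, beside 2.49%) and 1 was higher (1.79%, beside 1.89%). The 1 higher at night was Usp21, a protease of histone H2A and of signalling proteins. It read -0.19, -0.15, -0.22 and -0.12 at ZT03 and -0.11, -0.04, -0.19 and -0.21 at ZT07, and 0.17, 0.07, 0.16 and -0.03 at ZT19 and 0.09, -0.02, 0.17 and 0.09 at ZT23. At ZT11, still in the light, it read -0.06, 0.11, 0.02 and 0.16. That mean of 0.06 lay near those of ZT15 (0.09), ZT19 (0.09) and ZT23 (0.08), so only ZT03 and ZT07 were low. At ZT15 its arrays were -0.23, 0.16, 0.20 and 0.25, with replicate 1 as low as the arrays of ZT03 and ZT07 and the other 3 among the highest of the day. Its night minus day difference was 0.17 ± 0.0450 (1.13-fold, limma, adjusted p = 0.0284), and its amplitude 0.14 ± 0.0329 with the peak at ZT 17.1 (adjusted p = 0.0189). With all 24 arrays, Usp21 was called among the 6 times and between opposite times under array weights (adjusted p = 0.0114 and 0.00992) and quantile normalization (adjusted p = 0.0143 and 0.0164). Without ZT15 replicate 1 the amplitude was 0.17 (adjusted p = 0.000293), and Usp21 was called among the 6 times (adjusted p = 0.000925), at dusk against dawn (adjusted p = 0.0142) and between opposite times (adjusted p = 0.000755). The night call was lost without ZT03 replicate 3, ZT07 replicate 3 or 4, ZT11 replicate 3, ZT15 replicate 3 or 4, ZT19 replicate 1 or 3, or ZT23 replicate 3 (adjusted p between 0.05 and 0.0558). In no member did the 12 night arrays lie wholly apart from the 12 day arrays, as they did in 0.0676% of all genes.

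**Figure D5:**
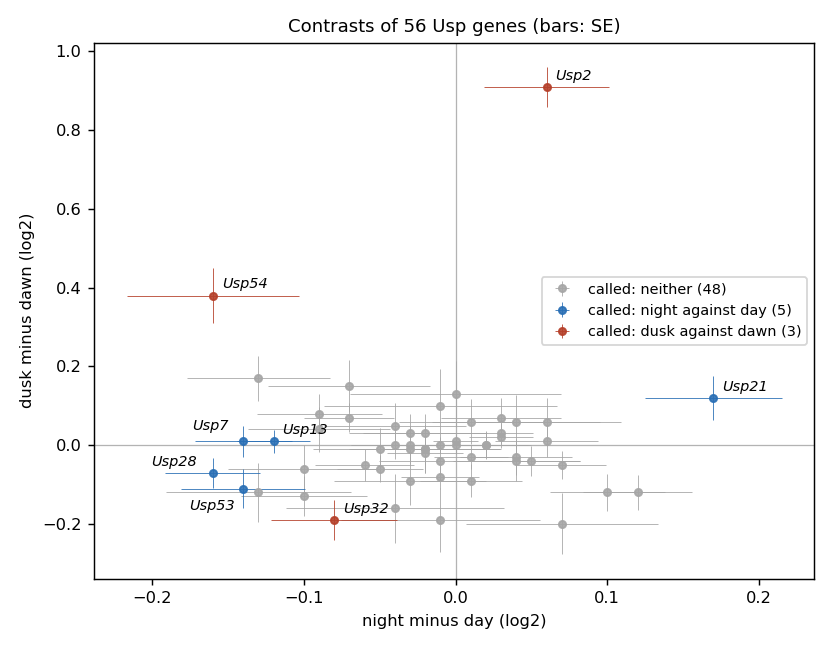
Each point is 1 of 56 Usp genes, with night minus day on the horizontal and dusk minus dawn on the vertical axis, in log2 units, and bars are standard errors. Blue points passed the test of night against day (5 members) and red points that of dusk against dawn (3 members). Usp2 stands at 0.91 on the dusk axis, Usp54 at 0.38 and Usp32 at -0.19.

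Some markers of cell types changed over the day in these samples. Of all genes 7.61% were rhythmic, 3.78% with a peak in the dark and 3.83% in the light, and 2.49% were lower at night. Platelet markers (8 measured, 4 with a 24-h rhythm, all peaking in the dark) had a list mean of -0.21 to -0.05 in the light and -0.02 to 0.93 in the dark, with 0.93 in ZT15 replicate 1. Macrophage markers (9 measured, 7 rhythmic, all in the dark) had list means of -0.35 to 0.07 in the light and -0.06 to 0.30 in the dark. Ventricular cardiomyocyte markers (10 measured, 3 rhythmic in the light and lower at night, Mybpc3, Ryr2 and Ttn) lay between -0.05 and 0.09 in the light and -0.09 and 0.01 in the dark. Of the other lists, fibroblasts had 3 of 8 rhythmic, endothelium 1 of 7 and adipocytes 1 of 5. Atrial cardiomyocytes (6), smooth muscle and pericytes (7), lymphocytes (5), neutrophils (6) and skeletal muscle (6) had 0 called. Red cell markers had no single-gene probe set here. Which markers are at 0 cannot be read from centred values, and the part of these cells in the Usp differences was not tested.

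Usp10 and Usp16 were high late in the night. Usp10, which is known as a partner of the stress granule protein G3BP1 and as a protease of p53, read -0.24, -0.05, -0.11 and -0.17 at ZT11 and 0.10, 0.07, 0.16 and 0.04 at ZT23, with no overlap. At ZT15 it read -0.25, 0.10, 0.00 and 0.13, where replicate 1 was as low as the lowest array of ZT11. ZT23 was 1.18-fold above ZT11 (log2 0.24 ± 0.0620, limma, adjusted p = 0.0368), which was lost without ZT11 replicate 1, 3 or 4 or any 1 array of ZT23 (adjusted p up to 0.113). The amplitude of 0.11 ± 0.0244 (adjusted p = 0.0170) held without each of the 24 arrays. Its night minus day difference of 0.12 was not called (adjusted p = 0.0590), but was under array weights (adjusted p = 0.018) and quantile normalization (adjusted p = 0.014) and without ZT15 replicate 1 (adjusted p = 0.00200) or ZT11 replicate 2 (adjusted p = 0.0477), and without the former it was also called among the 6 times (adjusted p = 0.00984).

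Usp16, a protease of histone H2A, read 0.00, 0.16, 0.19 and 0.10 at ZT19 and -0.26, -0.13, 0.07 and -0.07 at ZT11. These groups overlap through ZT11 replicate 3 and ZT19 replicate 1. Its amplitude was 0.11 ± 0.0255 (limma, adjusted p = 0.0278), and no contrast of times passed. The rhythm was lost without ZT07 replicate 2, ZT11 replicate 1 or 2, ZT19 replicate 2 or 3, or ZT23 replicate 1, 2 or 3 (adjusted p between 0.0502 and 0.0578).

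Usp19, which is known for a form anchored in the endoplasmic reticulum and for rising in wasting skeletal muscle, was highest at ZT11. Its arrays there read 0.01, 0.16, 0.19 and 0.35, and those of ZT23, its lowest time, -0.13, -0.23, -0.01 and -0.18, so the groups are separate by a narrow gap. ZT23 lay below ZT11 (log2 -0.32 ± 0.0813, limma, adjusted p = 0.0363), and the amplitude was 0.13 ± 0.0325 (adjusted p = 0.0372). The rhythm was lost without ZT07 replicate 4, ZT11 replicate 2, 3 or 4, ZT19 replicate 1 or 3, or ZT23 replicate 1, 2 or 4 (adjusted p between 0.0565 and 0.0934), and the difference of opposite times without the same arrays of ZT11 and ZT23 (adjusted p up to 0.153). At dusk against dawn (0.17, adjusted p = 0.116) it was called only without ZT03 replicate 4 (adjusted p = 0.0499).

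Usp32 and Usp47 lay just outside the threshold for a rhythm. Usp32, a large protease of endosomes and Golgi, read 0.30, 0.30, 0.00 and 0.14 at ZT03 and -0.32, -0.05, -0.05 and -0.05 at ZT15. Its 24-h fit had an adjusted p of 0.0511 (amplitude 0.12 ± 0.0314, ZT 2.41), beside 0.0372 for Usp19 just inside. Dusk lay 1.14-fold below dawn (log2 -0.19 ± 0.0510, limma, adjusted p = 0.0361), and ZT15 1.24-fold below ZT03 (log2 -0.31 ± 0.0722, adjusted p = 0.0191). The latter was lost without ZT03 replicate 1 or 2 or ZT15 replicate 1 (adjusted p up to 0.0808). Both were lost without the 3 arrays of widest spread (adjusted p = 0.082 for ZT15 against ZT03 and 0.0676 for dusk against dawn). The dusk call was lost without ZT03 replicate 1 or 2 or ZT15 replicate 1, ZT11 replicate 1, 3 or 4, or ZT23 replicate 1, 2 or 3 (adjusted p up to 0.0899). Usp47, a protease of DNA polymerase beta, had an adjusted p of 0.0619 (amplitude 0.10 ± 0.0287, ZT 3.94), and was called under array weights (adjusted p = 0.0437) and quantile normalization (adjusted p = 0.0341). Without 1 array Usp32 was called rhythmic in 5 cases, ZT03 replicate 3, ZT19 replicate 3 or 4 and ZT23 replicate 3 or 4 (adjusted p between 0.0247 and 0.0473). Usp47 was called without ZT19 replicate 3 or 4 or ZT23 replicate 4 (adjusted p between 0.00841 and 0.0431).

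Testing any difference among the 6 times called 4 members (7.14%, beside 4.72% of all genes), namely Usp2 (limma, adjusted p = 2.53e-09), Usp54 (adjusted p = 0.00697), Usp28 (adjusted p = 0.0264) and Usp13 (adjusted p = 0.0346). The Usp28 call was lost without ZT03 replicate 2 or 4 (adjusted p up to 0.0700), and that of Usp13 without any 1 of 12 arrays (adjusted p up to 0.0755). Dusk against dawn called 3 members (5.36%, beside 3.76%), Usp2 and Usp54 higher at dusk (beside 2.06%) and Usp32 lower (beside 1.70%). Opposite times called 6 members in at least 1 of the 3 pairs (10.7%, beside 5.87%). These were Usp2, Usp28 and Usp32 for ZT15 against ZT03 (5.36%, beside 3.06%), and Usp2, Usp10, Usp19 and Usp54 for ZT23 against ZT11 (7.14%, beside 2.72%). For ZT19 against ZT07 limma called 0 members (beside 1.59%), with 8 at an unadjusted p below 0.05 (14.3%, beside 13.1%). Leaving out 1 array added further calls in limma's test. Among the 6 times these were Usp32 without ZT03 replicate 3 (adjusted p = 0.0322), Usp53 without ZT07 replicate 3 (adjusted p = 0.0465) and Usp7 without ZT11 replicate 1 or ZT19 replicate 3 (adjusted p between 0.0425 and 0.0443). Between opposite times they were Usp13 without ZT19 replicate 4 (adjusted p = 0.026) and Usp4 without ZT11 replicate 1 (adjusted p = 0.05 after rounding). Usp1 was called at dusk against dawn without ZT23 replicate 4 (adjusted p = 0.0224), and Usp6nl at night against day without ZT19 replicate 3 (adjusted p = 0.0447). All these comparisons share arrays. In 19 members (33.9%, beside 27.6% of all genes) the arrays of the highest time lay wholly above those of the lowest. In all, 11 members passed at least 1 test and 45 passed none. The share of all genes passing at least 1 of these tests was not counted. The 24-h fit alone called 7.61% of all genes, so the 11 cannot be read as many or few.

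The other members are described by role, with amplitudes in log2. A rhythm was called in 17.9% of the 56 members and in 7.61% of all genes, and no role was tested against these shares. Of the proteases linked to the clock, Usp2 and Usp7 were rhythmic, while Usp9x, known as a protease of many substrates that include BMAL1, had 0.05 ± 0.0352 (limma, adjusted p = 0.680). Of the 3 members listed under the proteasome and free ubiquitin, Usp13 was rhythmic. Usp14, which trims chains at the proteasome, had 0.04 ± 0.0330 (limma, adjusted p = 0.810), and Usp5, which disassembles free chains, had 0.03 ± 0.0275 (adjusted p = 0.794). Time means of Usp14 ran from -0.12 ± 0.22 (SD, n = 4) at ZT23 to 0.03 ± 0.10 at ZT07. Among 13 proteases of histones and DNA repair, Usp16, Usp21 and Usp28 were rhythmic. Usp22, the protease of the SAGA coactivator, had an amplitude of 0.11 ± 0.0369 (adjusted p = 0.175) with a peak at ZT 10.6, and was called only without ZT07 replicate 2 (adjusted p = 0.0313). Usp49 (0.08, adjusted p = 0.226) passed without adjustment, and Usp3 (0.02), Usp27x (0.01) and Usp29 (0.01) were close to flat.

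None of Usp1, Usp12 and Usp46, the proteases that WDR48 activates, was rhythmic. Usp1, which acts on FANCD2 and PCNA, had the widest scatter of the 3 (amplitude 0.10 ± 0.0486, limma, adjusted p = 0.477), with an SD of 0.36 at ZT23, and was called without ZT23 replicate 4 (adjusted p = 0.0233). The 3 probe sets of Usp46 had amplitudes of 0.00, 0.06 and 0.11 and the 2 of Usp12 of 0.05 each with peaks at ZT 5.47 and ZT 0.571, and none of them was called. Of 4 members of splicing and the nucleolus, Usp4 (0.06, adjusted p = 0.241) and Usp15 (0.05, adjusted p = 0.245) passed only without adjustment, and Usp39 (0.06) and Usp36 (0.02) did not pass. Of 9 members at membranes, mitochondria and in traffic, Usp10 and Usp19 were rhythmic, whereas Usp8, of endosomal receptor sorting (0.02), Usp20 (0.03), Usp33 (0.01), Usp9y (0.01) and Usp30, the protease of the mitochondrial outer membrane (0.01 ± 0.0341, adjusted p = 0.993), were not called. Of 7 members listed as immune, 0 were called in limma's test. In Usp25, the 1 that passed without adjustment, the amplitude was 0.13 ± 0.0427 (limma, adjusted p = 0.130). Usp18, which removes ISG15, had 0.04 (adjusted p = 0.807). The 5 Usp17l genes are near-identical copies whose probes can share signal, and they had amplitudes from 0.00 to 0.08. Of the 4 listed as lacking protease activity, Usp53 and Usp54 were rhythmic and Usp39 and Usp6nl were not. The 13 members in none of these lists were Usp24, Usp26, Usp31, Usp34, Usp35, Usp37, Usp38, Usp40, Usp42, Usp43, Usp45, Usp47 and Usp50. None of the 13 was called, and the largest amplitudes among them were those of Usp40 (0.11, limma, adjusted p = 0.277), Usp45 (0.11, adjusted p = 0.286) and Usp47. The 5 smallest amplitudes were those of Usp17lb, Usp17lc, Usp30, Usp29 and Usp9y, at 0.01 or below.

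Deubiquitinases of other families are set beside the Usp genes, with no test of the difference. Of 36 measured genes of the OTU, UCH, Josephin, JAMM and MINDY families, ZUP1 and USP-fold proteins with other symbols, 2 had a 24-h rhythm (5.56%, beside 7.61% of all genes), and their median amplitude was 0.0594. They were Josd1, of the Josephin family (1.22-fold, ZT 19.4, limma, adjusted p = 0.00817), and Otud1, of the OTU family (1.30-fold, ZT 17.6, adjusted p = 0.0252), and both were higher at night. Otud5 was lower at night (log2 -0.17, adjusted p = 0.0225) with no rhythm called (adjusted p = 0.191). The JAMM family, which includes the proteasome subunit Psmd14, had 0 of 7 called, UCH 0 of 4, MINDY and ZUP1 0 of 5, and Cyld, Uspl1 and Pan2 0 of 3, with Mysm1 (adjusted p = 0.0565) and Mindy2 (adjusted p = 0.0579) closest.

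Of 16 partner subunits of these proteases, 2 were rhythmic, beside 7.61% of all genes. Both peaked in the light (beside 3.83% of all genes) and were lower at night (beside 2.49%). Eny2, a subunit of the SAGA module that holds Usp22, changed 1.31-fold with its peak at ZT 9.06 (limma, adjusted p = 0.000147), and its night minus day difference was -0.23 (adjusted p = 0.00104). Atxn7l3 of the same module had 1.19-fold and ZT 10.4 (adjusted p = 0.0703, not called), beside Usp22 itself at 1.16-fold and ZT 10.6. The related genes on the list were not called either. Their fitted peaks were at ZT 18.9 for Atxn7 (1.06-fold), ZT 18.3 for Atxn7l1 (1.01-fold) and ZT 8.44 for Atxn7l2 (1.02-fold). A common peak time was not tested. Wdr48, the activator of Usp1, Usp12 and Usp46, changed 1.15-fold with a peak at ZT 5.23 (adjusted p = 0.0204). G3bp1, the partner of Usp10, had a fitted peak at ZT 7.62 (1.15-fold, adjusted p = 0.121). Uba6, which encodes a ubiquitin-activating enzyme, was rhythmic (limma, 1.34-fold, ZT 0.853, adjusted p = 0.0473).

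Single arrays weighed on these small changes. Taken over its probe sets, an array's SD lay between 0.103 and 0.171, and ZT15 replicate 1 (0.171), ZT23 replicate 4 (0.155) and then ZT07 replicate 4 (0.153) had the widest spread. ZT23 replicate 4 was the lowest of its 4 arrays in 28 of 56 members (50%, beside 29.1% of all genes), ZT15 replicate 1 in 27 (48.2%, beside 27.8%), ZT19 replicate 1 in 26 (46.4%, beside 29.8%), ZT07 replicate 4 in 25 (44.6%, beside 30.3%) and ZT11 replicate 1 in 22 (39.3%, beside 29.8%). The pooled SD within a time point ran from 0.0222 in Usp9y to 0.202 in Usp17le. The part of these arrays in the differences is given above by leaving each out. The cycle was sampled once, and effects of light and of the clock cannot be told apart.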

How the data were processed

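RNA of 24 heart samples was hybridised to arrays, 500 ng each per the labels' protocols. The deposited table holds log2 values, centred by the authors on each probe set's median over the arrays. The centring was found from the values, whose medians are 0 within 5e-07. That the log base is 2 and that higher means more RNA were taken from the kind of table and not stated, and the normalization before it is not given in the sources used here. Values ran from -2.18 to 3.33. Of 34351 probe sets, 23521 named 1 gene, 1814 several and 9016 none. Those naming 1 gene were averaged to 22180 genes, and 2 probe sets that name a Usp gene with another gene were left out.

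The fits used limma 3.58.1 in R 4.3.3, tested on simulated data first, with Benjamini-Hochberg adjustment over all 22180 genes and a threshold of 0.05. They were a cosine and sine of 24 h, an F test over the 6 times, night minus day, dusk minus dawn, opposite times and neighbouring times. The labels say biological replicates but not which animals, so p-values measure the spread between these samples. Each number of arrays, 4 a time, limits the precision. Alternatives were a replicate block, array weights, quantile normalization, median centring, robust moderation, protein-coding genes alone, separate probe sets, and leaving out arrays.

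The members and lists were chosen with earlier results of these data known. Named were members that passed a test, those with an unadjusted p below 0.05, the 5 smallest amplitudes, those next to the threshold, called genes of the lists and the 5 nearest genes to Usp2. Other members and Otud5, Atxn7, Atxn7l1, Atxn7l2, Atxn7l3, G3bp1, Mysm1 and Mindy2 were named after their values were seen. So were the motifs and the 4 sequences shown. The 50 bases after the start were left out of the search, and with them TGACGT was also found in Usp2 and CCGGAAG in Usp19.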

Additional observations from a re-analysis of the deposited data

Results flagged for a closer look

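Within a time point, 1 array stood apart from the other 3 in 8 of 108 groups of 4 arrays tested among the named members by Dixon's gap over range, where chance gives about 1 in 20. In Usp54 at ZT11 replicate 1 read 0.08 and the others 0.45 to 0.52. In Usp32 at ZT15 replicate 1 read -0.32 and the others -0.05 each. At ZT23 replicate 4 was low in Usp28 (-0.26, others -0.02 to 0.00), Usp4 (-0.31, others -0.09 to -0.05) and Usp16 (-0.02, others 0.12 to 0.13). In Usp2 at ZT19 replicate 1 read 0.01 and the others -0.10 to -0.08. In Usp4 at ZT15 replicate 4 read 0.06 and the others -0.02 to -0.01, and in Usp15 at ZT11 replicate 3 read 0.09 and the others -0.07 to -0.05.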

How the results depend on the processing

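Amplitudes have no sign, so direction applies to peak times. Those of members with amplitudes near 0 turned over, as in Usp30 (ZT 23.5, and ZT 10.3 without ZT11 replicate 2) and Usp17lb (ZT 5.66, and ZT 19.1 without ZT07 replicate 2). The count of Usp genes differing among the 6 times (4) was 2 with the replicate block, which lost Usp13 (limma, adjusted p = 0.0517) and Usp28 (adjusted p = 0.0546). With that block the count over all genes fell from 1046 to 901. The count for neighbouring times (1) was 2 with array weights and 2 without the 3 arrays of widest spread. Over all genes it was 294, and 395 and 257 under these settings. Without 1 array, the counts ran from 8 to 12 for the 24-h rhythm, 2 to 6 among the 6 times, 3 to 5 for night against day, 2 to 4 for dusk against dawn, 4 to 7 for opposite times and 1 to 3 for neighbouring times. Counts over all genes moved as well. Without ZT03 replicate 1, for example, 1533 genes were called rhythmic, beside 1688 with all 24 arrays. Array weights, quantile normalization and protein-coding genes alone added Usp32 to the rhythmic genes (adjusted p = 0.0406, 0.0347 and 0.0455), and the first pair also added Usp47 (adjusted p = 0.0437 and 0.0341), giving 12 members each. Rhythmic genes over the whole table also rose, from 1688 to 1983 with array weights and 1921 with quantile normalization. Without the 3 arrays of widest spread 8 members were rhythmic, 7 of them among the 10, beside 1728 of all genes. The night call of Usp53 was lost with the replicate block (adjusted p = 0.0757), array weights (0.056), robust moderation (0.0523), without the 3 arrays (0.155) and with separate probe sets. Night calls were gained by Usp10 under array weights (adjusted p = 0.018), quantile normalization (0.014) and without the 3 arrays (0.00353), and by Usp16 without the 3 arrays (0.0466). Over all genes night calls rose from 973 to 1271, 1208 and 1083 under these 3 settings. Among the 6 times and between opposite times Usp21 was gained under array weights, quantile normalization and without the 3 arrays (adjusted p between 0.00116 and 0.0164). Among the 6 times Usp10 was gained with quantile normalization (adjusted p = 0.0433) and without the 3 arrays (0.0123), which lost Usp13 (0.0974). The same 3 arrays decided Usp1 (0.032) and Usp21 (0.022), gained, and Usp32 (0.0676), lost, at dusk against dawn, and Usp1 (0.0455), gained, and Usp19 (0.0904) and Usp32 (0.082), lost, between opposite times. The step calls gained were Usp54 with array weights (0.0379) and Usp10 without the 3 arrays (0.0477). With the replicate block the rhythmic members were the same 10. No pairing by replicate number was seen on average. Same-numbered arrays had a mean correlation of deviations of -0.0141 over 60 pairs (-0.228 to 0.226), beside 0.0051 over 180 other pairs (-0.2 to 0.303). A mean near 0 cannot exclude a pairing or a batch of some arrays. The planned filter on dim genes was not run, because centred values hold no level. For the same reason signal over background is unknown here.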
